A study of Mus musculus with 18 samples.

Results

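OT1 thymocytes that developed in a host carrying their antigen were compared with OT1 thymocytes that developed in a wild-type host. The cells had been sorted on surface proteins, given below. From those deposited, they were picked by hashtag, the antibody barcode that ties each cell to its mouse, and by no other measured gene or protein. They number 486 of the 1331 cells deposited: 204 from the antigen-bearing host (labelled NegSelected) and 282 from the wild-type host (labelled PosSelected). OT1 is a transgenic T cell receptor, built from the chains Va2 and Vb5, that recognises a peptide of chicken ovalbumin on MHC class I. Each chimera received 30% donor marrow carrying OT1 and CD45.1.2, and 70% wild-type CD45.1 competitor marrow, in a CD45.2 recipient. The recipient was C57BL6/Ncr for PosSelected. For NegSelected it was RIPmOVA, which carries the transgene Tg(Ins2-TFRC/OVA)296Wehi on C57BL/6 and makes a membrane-bound ovalbumin under the insulin promoter. All were females aged 14 weeks, taken 6 weeks after transplant, with the thymus dissociated mechanically and cells sorted as CD44lo CD45.1.2+ Va2+ Vb5+. There was 1 mouse on each side, from the same 10x lane, so the host and the individual mouse cannot be told apart. No test was made, and the 95% intervals (exact for ratios and shares, Newcombe for differences of shares) cover counting error only.

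In the thymus, T cell precursors pass from CD4-CD8- through CD4+CD8+ to CD4+ or CD8+ stages. A weak signal from self peptide on MHC lets a CD4+CD8+ cell survive and mature (positive selection), and an MHC class I receptor such as OT1 then directs it to the CD8+ lineage. A strong signal from the cognate antigen can delete the cell, or divert it, which is called negative selection. Insulin-promoter transgenes are also transcribed in medullary thymic epithelial cells, where tissue antigens are shown to developing T cells. Transgenic alpha-beta receptors are known to be expressed early, already in CD4-CD8- cells, and some such cells take on features of gamma-delta T cells.

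The barcodes below are those that sorted the cells into mice and into gates, followed by those of the surface proteins on which the later results turn. Each is a 15-base sequence, printed 5′ to 3′ with all of it in capitals because the whole barcode is read.
HT5 (RIPmOVA host): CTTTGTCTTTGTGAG
HT3 (wild-type host): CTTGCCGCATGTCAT
CD4: AACAAGACCCTTGAG
CD8A: TACCCGTAATAGCGT
CD8B: TTCCCTCTATGGAGC
TCRVA2: TTGACCCGCTACGAA
CD24: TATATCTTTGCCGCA
ITB7: TCCTTGGATGTACCG
CD103: TTCATTAGCCCGCTG
PDCD1.PD1.CD279: GAAAGTCAAAGCACT
KIT: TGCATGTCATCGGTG

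The RIPmOVA mouse gave 1276716 RNA UMIs (unique molecular identifiers, each counted once per captured molecule) at a median of 5139 per cell, and the wild-type mouse 1861286 at a median of 5385. Levels are given as CPM, UMIs scaled to 1000000 per mouse or gate, and a gene is called measured where both mice together gave at least 50 UMIs. The cells carried T cell RNA: all 8 T cell markers were measured, and their summed level was 6135 CPM in the RIPmOVA and 6813 CPM in the wild-type mouse. Markers of myeloid cells, NK and innate lymphoid cells, red cells and thymic epithelium summed to at most 8.62 CPM per list. B cell markers summed to 35.2 and 29.0 CPM, dendritic cell markers to 19.6 and 67.7, and iNKT markers to 533 and 279, with 1 of 5, 1 of 8 and 2 of 4 of their genes measured. The dendritic gene measured was Cd74, with 58 of its 95 wild-type UMIs in 1 cell. Antibody depth differed. Cells with under 2000 antibody UMIs were 30 of 204 (14.7%) in the RIPmOVA mouse and 103 of 282 (36.5%) in the wild-type mouse. The low-antibody cells of the wild-type mouse also held more cell-cycle RNA, 3211 CPM summed over the list against 1684 CPM in its other cells. In the RIPmOVA mouse these values were 1515 and 1673 CPM. Results within gates are therefore given for all cells, for cells with at least 2000 antibody UMIs, and with gates drawn on CD4 and CD8A per 10000 antibody UMIs. The part that antibody depth plays in the all-cell gates was not tested beyond these settings.

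Fewer CD8+ cells and more CD4-CD8- cells were found in the RIPmOVA mouse. By antibody, 138 of 204 of its cells (67.6%, interval 60.8 to 74.0) lay in the CD4-CD8- gate, against 128 of 282 (45.4%, interval 39.5 to 51.4) of the wild-type mouse, a difference of 22.3 points (Newcombe interval 13.4 to 30.6). The CD4-CD8+ gate held 41 cells (20.1%) and 97 cells (34.4%), a difference of -14.3 points (interval -21.8 to -6.27). The CD4+CD8+ gate held 16 cells (7.84%) and 36 cells (12.8%), a difference of -4.92 points (interval -10.2 to 0.731). The CD4+CD8- gate held 9 and 21 cells, a difference of -3.04 points (interval -7.25 to 1.49). The intervals of the last 2 gates include 0.

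Among cells with at least 2000 antibody UMIs the gap was wider. The CD4-CD8- gate then held 112 of 174 RIPmOVA cells (64.4%) and 46 of 179 wild-type cells (25.7%), a difference of 38.7 points (interval 28.6 to 47.6). The CD4-CD8+ gate held 37 (21.3%) and 76 (42.5%), a difference of -21.2 points (interval -30.3 to -11.5). The CD4+CD8+ and CD4+CD8- differences were -10.9 and -6.56 points, with intervals that lay below 0. With gates drawn per 10000 antibody UMIs, the CD4-CD8- and CD4-CD8+ differences were 37.7 and -26.1 points. RNA of the CD8 genes bears on the gate itself: in the all-cell CD4-CD8- gate, Cd8a RNA was 21.1 CPM (19 UMIs) in the RIPmOVA mouse and 234 CPM (227 UMIs) in the wild-type mouse. In that gate 26 of 138 and 82 of 128 cells had under 2000 antibody UMIs. With at least 2000, Cd8a RNA there was 1.38 CPM (1 UMI) and 69.8 CPM (22 UMIs). The wild-type CD4-CD8- gate thus held Cd8a RNA in all settings, and most of it sat in cells with few antibody UMIs.

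**Figure D1:**
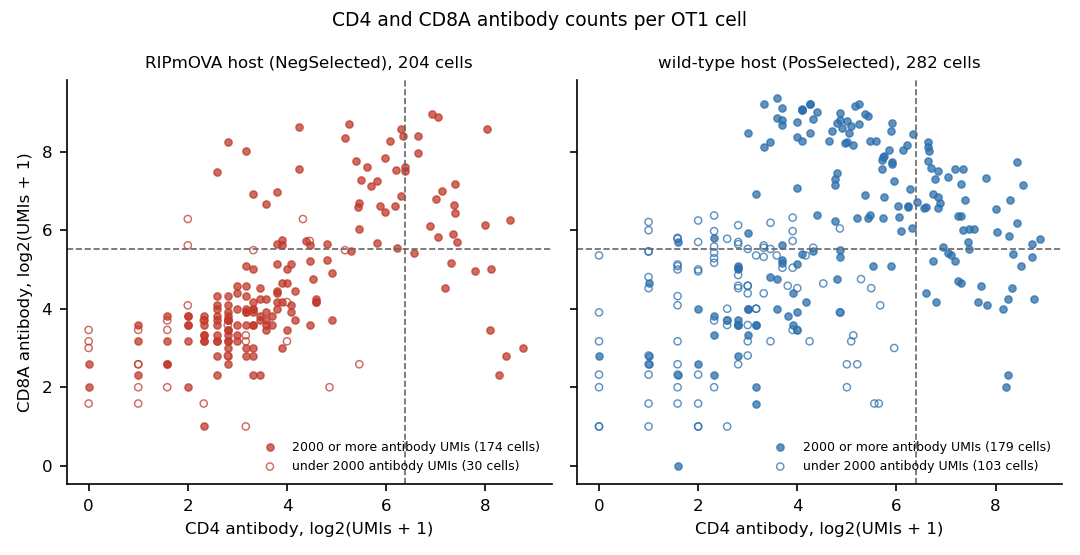
CD4 antibody (x axis) against CD8A antibody (y axis), each as log2(UMIs + 1), for the 204 cells of the RIPmOVA host and the 282 cells of the wild-type host. Filled points have at least 2000 antibody UMIs, open points fewer, and dashed lines are the gate thresholds; 103 wild-type and 30 RIPmOVA cells are open, and the filled cells in the upper left are fewer in the RIPmOVA mouse (37 against 76).

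**Figure D2:**
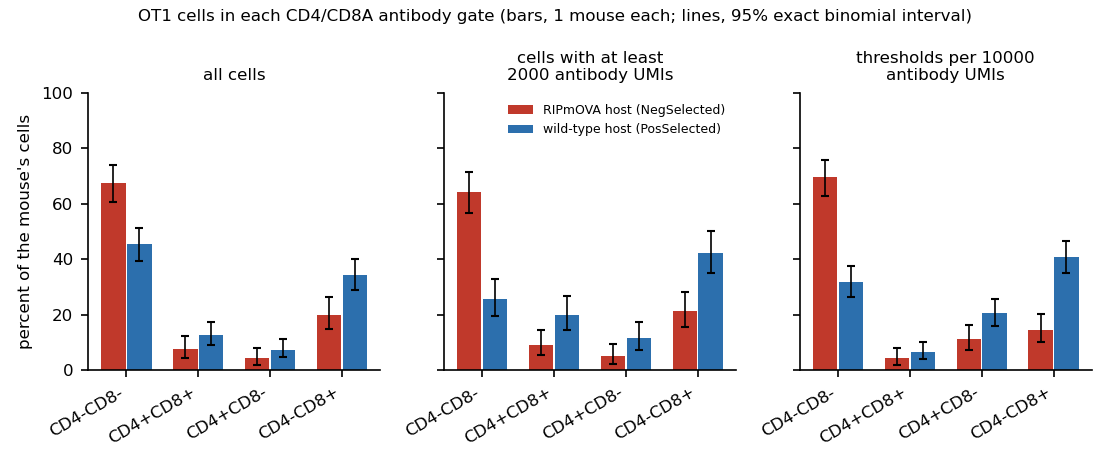
Share of each mouse's cells in the 4 antibody gates (bars, 1 mouse each) with exact binomial 95% intervals, for all cells, for cells with at least 2000 antibody UMIs and with thresholds per 10000 antibody UMIs. The CD4-CD8- share is higher in the RIPmOVA mouse in each panel (67.6% against 45.4% in all cells) and the CD4-CD8+ share lower (20.1% against 34.4%).

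Over all cells, RNA of genes known from gamma-delta T cells was higher in the RIPmOVA mouse, and RNA of both CD8 chains was lower. Of 7174 genes measured, 146 (2.04%) were at least 2-fold higher in CPM in the RIPmOVA mouse and 93 (1.3%) at least 2-fold lower. S100a6, a calcium-binding protein, had 254 UMIs in the RIPmOVA and 40 in the wild-type mouse (199 against 21.5 CPM), a ratio of 9.26 (interval 6.61 to 13.3). Its UMIs were spread over 69 RIPmOVA cells, with 21 in the highest. Ahr, a ligand-activated transcription factor, had 52 and 7 UMIs, a ratio of 10.8 (interval 4.90 to 28.3). Alox5ap, the activating protein of 5-lipoxygenase in leukotriene synthesis, had 164 and 36 UMIs, a ratio of 6.64 (interval 4.61 to 9.81). Cpa3, a carboxypeptidase best known from mast cells, was the most abundant of the named genes, with 985 and 304 UMIs (772 against 163 CPM) and a ratio of 4.72 (interval 4.15 to 5.39).

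The other named genes on the higher side included signalling regulators and genes of unclear function. Tbc1d4, a GTPase-activating protein for Rab proteins, had 57 and 16 UMIs, a ratio of 5.19. Rgs1, a regulator of G protein signalling, had 65 and 21, a ratio of 4.51. Serpinb6b, a protease inhibitor, had 43 and 13, a ratio of 4.82, and Mcub, an inhibitory subunit of the mitochondrial calcium channel, 59 and 20, a ratio of 4.30. Gm19696 (52 and 9) and Olfm5 (72 and 17) had ratios of 8.42 and 6.17, although 14 of the 17 wild-type Olfm5 UMIs came from 1 cell. An interval that excluded 1.5-fold was part of the rule by which these genes were named.

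Gamma-delta genes stood together. Of the 12 listed, 11 were measured, all 11 were higher in the RIPmOVA mouse, 9 at least 2-fold, and their median log2 ratio was 1.57, beside 0.00059 over all genes measured. Trgc1, a constant region of the gamma chain, had 707 and 186 UMIs, a ratio of 5.54. Trgc2 had 344 and 117, a ratio of 4.29, and how reads of such near-identical gamma constant regions were split between copies is uncertain. Trdc, the delta constant region, had 1053 and 863 UMIs, a ratio of 1.78. Sox13, a transcription factor of gamma-delta precursors, had 241 and 137, a ratio of 2.56 (interval 2.07 to 3.19). Zbtb16, the factor of innate-like NKT cells, had 1 UMI in the RIPmOVA mouse and 0 in the wild-type mouse. Of the genes listed for effector-like cells, 6 of 12 measured were at least 2-fold higher and 1 at least 2-fold lower, with a median log2 ratio of 0.94. The most abundant of them, Lgals1 (1305 and 1139 UMIs) and S100a10 (951 and 889), had smaller ratios of 1.67 and 1.56.

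Genes known to answer strong receptor signals were higher in part. Of 17 genes listed for thymocytes that meet strong self antigen 12 were measured, of which 5 were at least 2-fold higher and 1 at least 2-fold lower, and the median log2 ratio was 0.74. Ikzf2, which encodes Helios, had 711 and 485 UMIs, a ratio of 2.14 (interval 1.90 to 2.40). Pdcd1, the gene of the inhibitory receptor PD-1, had 245 and 163, a ratio of 2.19 (interval 1.79 to 2.69). Nr4a3 had 37 and 18 UMIs, a ratio of 3.0, and Nr4a1 98 and 72, a ratio of 1.98; both are immediate-early nuclear receptors. Bcl2l11, which encodes the death protein Bim, had 72 and 63 UMIs, a ratio of 1.67 (interval 1.17 to 2.37). Without the highest cell of each mouse the ratio of Bcl2l11 was 1.44, with an interval (0.98 to 2.11) that includes 1. In the same way Nr4a1 went to 1.56 (interval 1.08 to 2.27) and Nr4a3 to 4.09 (interval 1.93 to 9.44). Tnfrsf9 had 45 and 18 (ratio 3.64) and Tnfrsf18, the gene of GITR, 77 and 65 (ratio 1.73); both encode costimulatory receptors. Of genes listed for the early receptor signal 6 of 10 measured were above 1, 1 was at least 2-fold higher and 0 lower, and the median log2 ratio was 0.21. With gates weighted alike in both mice 8 of 10 were above 1, 3 at least 2-fold, with a median of 0.45. In that list Cd69 had a ratio of 1.44 (152 and 154 UMIs) and Cd5, which tunes receptor signalling, 0.81 (339 and 607 UMIs). Id3, a target of the same signal, had 654 and 933 UMIs, a ratio of 1.02 (interval 0.92 to 1.13).

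On the lower side the CD8 genes led in counts. Cd8a had 83 UMIs in the RIPmOVA and 806 in the wild-type mouse (65.0 against 433 CPM), a ratio of 0.15 (interval 0.12 to 0.19). Cd8b1 had 91 and 703, a ratio of 0.19 (interval 0.15 to 0.24). Of 5 genes listed for the CD8 lineage these were the 2 below 1, while Runx3, Nkg7 and Itgae had ratios of 1.13, 1.17 and 1.26 and the list's median log2 ratio was 0.17. Cd4 had 29 and 72, a ratio of 0.59 (interval 0.37 to 0.92). Klrd1, the gene of the inhibitory receptor chain CD94, had 11 and 79, a ratio of 0.20. Rapgef4, an exchange factor for Rap proteins that responds to cyclic AMP, had 10 and 110, a ratio of 0.13, and Slfn1, a Schlafen gene of quiescent T cells, 16 and 111, a ratio of 0.21. Acvrl1, a receptor of the TGF-beta family, had 7 and 47 UMIs. Gm44174 (2 and 57), Gm11707 (5 and 57), Als2cl (7 and 48), Gm20400 (8 and 51) and Mctp2 (9 and 51) had ratios from 0.05 to 0.26. Itm2a, a gene of positively selected thymocytes, had 415 and 1050 UMIs, a ratio of 0.58 (interval 0.51 to 0.65). Of 20 genes listed for maturation and exit of single-positive cells 17 were measured, of which 0 were at least 2-fold higher and 1 lower (Slfn1), with a median log2 ratio of -0.19.

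**Figure D3:**
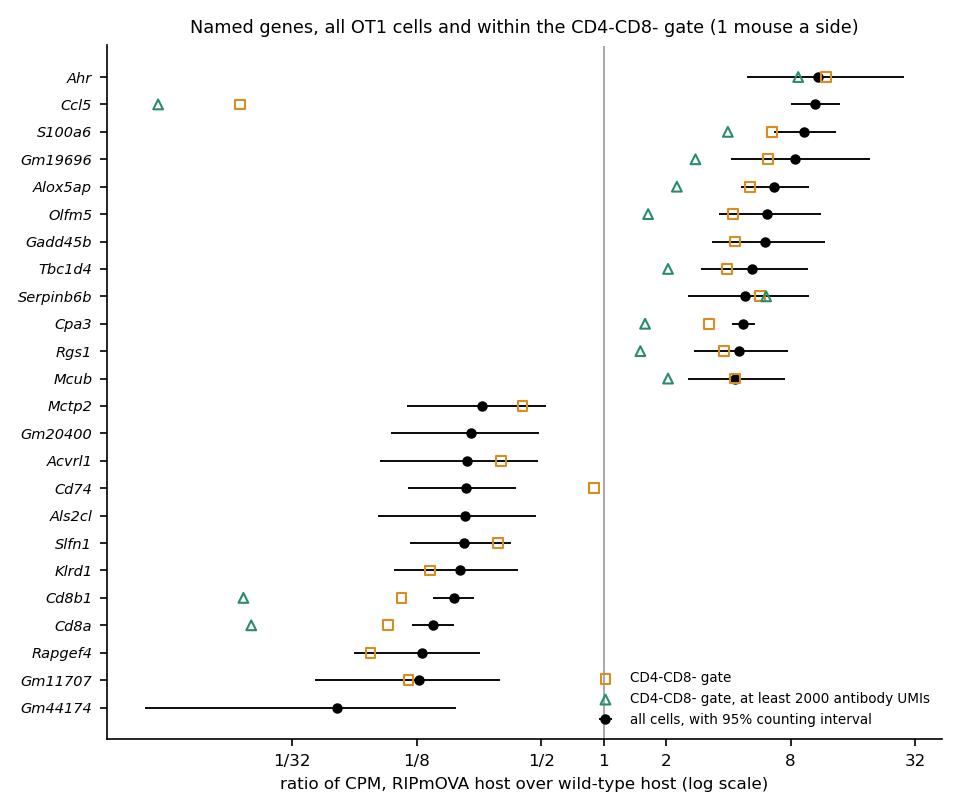
Ratio of CPM, RIPmOVA over wild-type host (x axis, log scale), for the 12 genes highest and 12 lowest by ratio over all cells. Black points and lines are all cells with the 95% counting interval, squares the CD4-CD8- gate, triangles that gate in cells with at least 2000 antibody UMIs (points with under 20 UMIs or a side at 0 are not drawn); S100a6 goes from 9.26 to 6.48 to 3.98, and Ccl5 changes side.

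Part of the difference followed the gates. When the gates were given the same weight in both mice (the mean of their shares), 106 genes (1.48% of 7174) were at least 2-fold higher and 70 (0.976%) at least 2-fold lower. Scaled by TMM the split was 92 and 86, by RLE 90 and 88, and with the 4 gates given equal weights 233 and 231. Of the 146 genes higher over all cells, 97 were still at least 2-fold higher and all 146 stayed above 1. Of the 93 lower genes, 63 were still at least 2-fold lower. In cells with at least 2000 antibody UMIs, 28 of 116 measured higher genes and 27 of 44 lower ones stayed past 2-fold. There 75 of 6012 genes were higher and 47 lower. With gates per 10000 antibody UMIs 50 of 146 and 52 of 93 stayed past 2-fold. Of 7174 genes 87 were then higher and 73 lower. In all cells with the main gates, the standardised ratios that led, apart from that of Ccl5, were 9.59 for Ahr, 7.81 for S100a6, 6.18 for Gadd45b and 6.24 for Gm19696. Those of Gm44174, Gm11707, Rapgef4, Cd8a and Acvrl1 were 0.08, 0.16, 0.20, 0.21 and 0.23.

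Within the CD4-CD8- gate most gamma-delta genes stayed on the higher side, by less in the deeper cells. Of 5634 genes measured there, 116 (2.06%) were at least 2-fold higher in the RIPmOVA mouse and 177 (3.14%) at least 2-fold lower. Of the 146 genes higher over all cells, 114 were measured in the gate and 75 were at least 2-fold higher; in cells with at least 2000 antibody UMIs it was 20 of 84. There, of 3535 genes measured, 60 (1.7%) were at least 2-fold higher and 44 (1.24%) lower. S100a6 had 216 and 36 UMIs in the gate, a ratio of 6.48 (interval 4.54 to 9.50), and 192 and 21 in the deeper cells, a ratio of 3.98 (interval 2.53 to 6.57). Ahr had ratios of 11.9 and 8.70 (44 against 4 and 40 against 2 UMIs), and Serpinb6b 5.71 and 6.09. Alox5ap had 5.08 and 2.26, Gm19696 6.24 and 2.77, and Mcub 4.32 and 2.04. Zscan2, a zinc finger gene, had 57 and 14 UMIs, a ratio of 4.40, and 2.97 in the deeper cells. With gates per 10000 antibody UMIs, 47 of 5167 genes (0.91%) were at least 2-fold higher and 49 (0.948%) lower, and the ratios of S100a6, Ahr and Alox5ap were 3.82, 7.82 and 3.74.

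Cpa3 and the receptor constant genes were also nearer to 1 in those cells. Cpa3 had 896 and 300 UMIs in the CD4-CD8- gate, a ratio of 3.23, and 859 and 236 in the deeper cells, a ratio of 1.58 (interval 1.37 to 1.84). Trgc1 went from 3.90 to 2.11 and Trgc2 from 3.46 to 1.70. Sox13 went from 1.96 to 0.99 (interval 0.76 to 1.30), so no difference was detectable for it there. The gamma-delta list had 8 of 11 genes at least 2-fold higher in the gate (median log2 ratio 1.3) and 2 of 11 in the deeper cells (median 0.58), where the median of all genes was -0.0058. In the deeper cells 9 of the 11 were above 1, with Sox13 and Maf (0.78) below. With gates per 10000, 10 of 11 were above 1, 3 at least 2-fold, with a median of 0.72. Effector-like genes were above 1 in 10 of 10 measured in both settings, with medians of 0.81 and 0.42. Of the immediate-early genes, Nr4a1 had 51 and 37 UMIs in the gate, a ratio of 1.49, and 42 and 3 in the deeper cells. Of those 42 UMIs, 35 came from 1 cell, which also held 18 of the 19 Xcl1 UMIs of that mouse. Cd69 had ratios of 1.88 and 1.98, and Pdcd1 of 1.82 and 1.64.

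Interferon-response genes were higher in the CD4-CD8- gate. Of 14 measured of 16 listed, 13 were above 1, 4 were at least 2-fold higher and 0 lower, with a median log2 ratio of 0.73; in the deeper cells 12 of 13 were above 1, 4 at least 2-fold, with a median of 0.63. Isg15, a ubiquitin-like modifier, had 173 and 75 UMIs, a ratio of 2.49, and 2.26 in the deeper cells. Irf7, a transcription factor of that response, had 88 and 41, ratios of 2.32 and 2.20. Gbp2, a guanylate-binding protein, had 70 and 30, ratios of 2.52 and 3.84. Over all cells the list's median was 0.31, with 2 of 15 measured genes at least 2-fold higher and 1 lower. MHC class I genes in the gate were above 1 in 10 of 10 measured, none 2-fold, with a median of 0.27.

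Both CD8 chains and cell-cycle genes were lower in the CD4-CD8- gate. Cd8a had a ratio of 0.09 and Cd8b1 (20 and 205 UMIs) of 0.11. All 18 cell-cycle genes were below 1 there, 13 at least 2-fold, with a median log2 ratio of -1.2. Mki67, the proliferation marker Ki-67, had 73 and 290 UMIs, a ratio of 0.27, Top2a, a topoisomerase of dividing cells, 63 and 258, a ratio of 0.26, and Rrm2, a subunit of ribonucleotide reductase, 32 and 223, a ratio of 0.16. In cells with at least 2000 antibody UMIs 7 of 15 were at least 2-fold lower and 2 at least 2-fold higher, with a median of -0.87, and Mki67 and Top2a had ratios of 0.82 and 0.67. With gates per 10000, 2 of 17 were at least 2-fold lower, 15 of 17 below 1, and the median was -0.57. The list's RNA sat in few cells: its median was 2.63 UMIs per 10000 in the RIPmOVA and 2.60 in the wild-type CD4-CD8- cells, while the 90th percentiles were 13.6 and 63.0. Among wild-type CD4-CD8- cells the 90th percentile was 73.6 in those with under 2000 antibody UMIs and 34.1 in the rest. Cenpp, a centromere protein (5 and 61 UMIs), had a ratio of 0.09. Gm20628 had 10 and 90 UMIs, but 10 and 1 in the deeper cells, where it stood on the other side. Because the 2 mice differ in antibody depth within this gate, host, depth and cycling cells cannot be told apart there.

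Within the CD4-CD8+ gate the contrast took another form. Maturation genes were lower in the RIPmOVA mouse, the few measured genes listed for strong self antigen were higher, and cycling genes were partly higher. In this gate 4 of 41 RIPmOVA and 21 of 97 wild-type cells had under 2000 antibody UMIs, with medians of 5739 and 5177 antibody UMIs and 4771 and 5771 RNA UMIs per cell. The gate begins at 45.3 CD8A antibody UMIs, and its cells had CD8A medians of 121 and 212. The RIPmOVA median thus lay nearer the threshold, and the cells compared differ in CD8A protein. The gate held 41 and 97 cells with 251867 and 636117 RNA UMIs, and of 3021 genes measured 80 (2.65%) were at least 2-fold higher and 112 (3.71%) at least 2-fold lower. Scaling by TMM moved all log2 ratios by -0.14 and RLE by -0.15, which turned that split into 49 higher and 150 lower, or 46 and 156. In cells with at least 2000 antibody UMIs, of 2564 genes 68 (2.65%) were higher and 93 (3.63%) lower, and with gates per 10000, of 3524 genes 122 (3.46%) and 246 (6.98%). Of the 146 genes higher over all cells only 18 could be measured in the gate, and 11 of them were at least 2-fold higher; of the 93 lower genes, 22 of 27 were at least 2-fold lower.

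All 17 measured of 20 maturation and exit genes were below 1 in the CD4-CD8+ gate, 9 at least 2-fold, with a median log2 ratio of -0.94 beside 0.05 for all genes there. Klf2, the factor that drives exit genes, had 27 UMIs in the RIPmOVA and 342 in the wild-type gate (107 against 538 CPM), a ratio of 0.20 (interval 0.13 to 0.30). S1pr1, the receptor that guides cells out of the thymus, had 6 and 70, a ratio of 0.22 (interval 0.08 to 0.50). Ccr7, the chemokine receptor of medullary entry, had 17 and 161, a ratio of 0.27 (interval 0.15 to 0.44). Cd52 had 218 and 1562, a ratio of 0.35, Ms4a4b 46 and 471, a ratio of 0.25, and Il7r, the receptor chain for interleukin 7, 19 and 118, a ratio of 0.41. The count at least 2-fold lower was 10 of 17 in cells with at least 2000 antibody UMIs and 10 of 17 with gates per 10000. In either, 0 were at least 2-fold higher. Below 1 were 17 of 17 in the deeper cells, but 15 of 17 with gates per 10000. In the CD4-CD8- gate the same list had 12 of 16 measured genes above 1 and a median of 0.16. In the deeper cells of that gate it was 10 of 16 (median 0.16), and with gates per 10000 9 of 16 (median 0.19).

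CD8-lineage genes were lower inside the CD4-CD8+ gate, with 5 of 5 below 1, 3 at least 2-fold, and a median log2 ratio of -1.61. Cd8a had 52 UMIs in the RIPmOVA and 533 in the wild-type gate (206 against 838 CPM), a ratio of 0.25 (interval 0.18 to 0.33), and Cd8b1 55 and 437, a ratio of 0.32. Ctsw, a protease of cytotoxic lymphocytes, had 9 and 266, a ratio of 0.09 (interval 0.04 to 0.16). Itgae, which encodes the integrin chain CD103, had 1 and 66. Rapgef4 had 1 and 51, and Hvcn1, a proton channel, 2 and 51. Ifi27l2a, an interferon-response gene, had 33 and 430 UMIs, a ratio of 0.19; the interferon list as a whole had 7 of 9 below 1 and a median log2 ratio of -0.29, the reverse of its side in the CD4-CD8- gate. MHC class I genes were below 1 in 6 of 10, with a median of -0.61, and H2-K1 (153 and 660 UMIs) was at 0.59 and B2m (140 and 559), the light chain of MHC class I, at 0.63. Cd74, the MHC class II invariant chain, had 0 and 64 UMIs, of which 58 were in 1 wild-type cell.

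The measured genes listed for strong self antigen were higher in the CD4-CD8+ gate, and those listed for the early receptor signal differed less. Of the 17 genes listed for strong self antigen only 4 were measured there, Bcl2l11, Ikzf2, Pdcd1 and Hivep3. Each was at least 2-fold higher in all cells and in the deeper ones, with median log2 ratios of 1.59 and 1.72. Bcl2l11 reached the minimum of 50 UMIs over both mice through its RIPmOVA counts, so it adds no support to that count or those medians. Bcl2l11 had 38 UMIs in the RIPmOVA and 21 in the wild-type gate (151 against 33.0 CPM), a ratio of 4.57 (interval 2.61 to 8.20). The highest cell held 15 of the 38, and with counts capped at the 99th percentile the ratio was 2.72. Ikzf2 had 189 and 140, a ratio of 3.41 (interval 2.73 to 4.27), Pdcd1 49 and 41, a ratio of 3.02 (interval 1.95 to 4.69), and Hivep3, a zinc finger factor, 57 and 50, a ratio of 2.88 (interval 1.93 to 4.30). Capped, those ratios were 2.99, 3.07 and 2.62. Nr4a3 had 16 and 3 UMIs and Gadd45b, a stress and NF-kappaB response gene, 21 and 0, which is at least 17.7-fold higher against a floor of 3 counts. The highest RIPmOVA cell of Gadd45b held 19 of the 21, and the same cell was the highest for Bcl2l11 and Nr4a3. Tox, a factor of selected thymocytes, had 213 and 328 UMIs, a ratio of 1.64. Cd27 (153 and 222) and Cd28 (93 and 146), both costimulatory receptors, had ratios of 1.74 and 1.61, and Cd5 and Itm2a of 1.33 and 1.47. For Cd5 and Itm2a this is the opposite side from all cells (0.81 and 0.58).

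**Figure D4:**
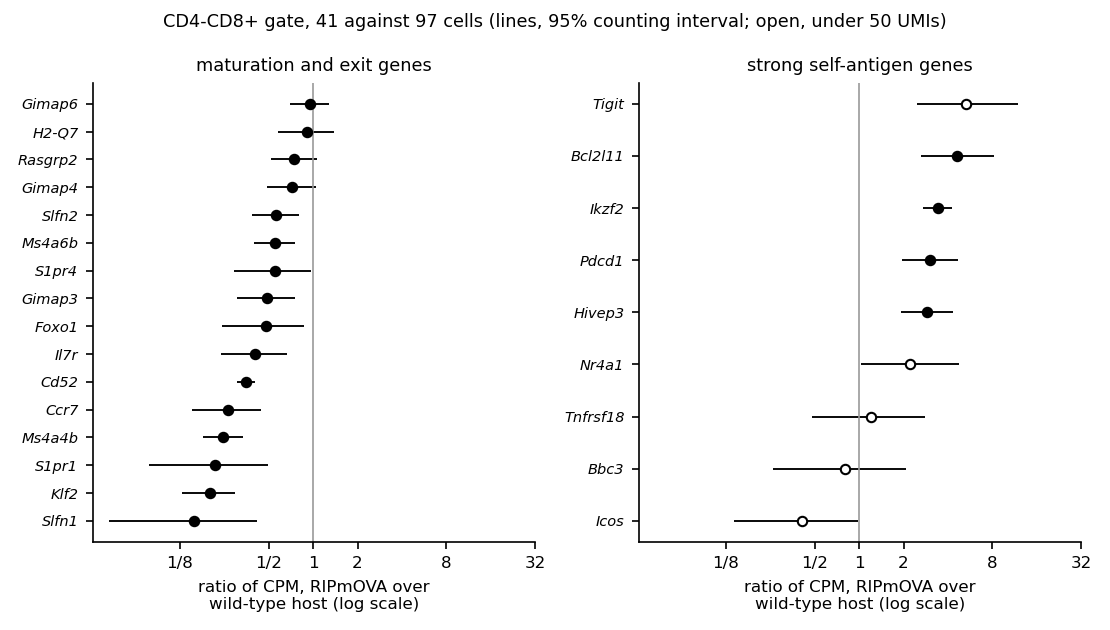
Ratio of CPM in the CD4-CD8+ gate, RIPmOVA over wild-type host (x axis, log scale), for genes of maturation and exit (left) and of strong self antigen (right) with at least 20 UMIs and none at 0 on either side. Points are ratios with 95% counting intervals, open where a gene has under 50 UMIs; the 16 maturation genes drawn lie below 1 and Bcl2l11, Ikzf2, Pdcd1 and Hivep3 lie between 2.88 and 4.57.

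Summed cell-cycle RNA was on the higher side in the CD4-CD8+ gate, the opposite of the CD4-CD8- gate. Of 17 measured cell-cycle genes 13 were above 1, 5 at least 2-fold, with a median log2 ratio of 0.61; with gates per 10000 antibody UMIs 0 of 18 were 2-fold and the median was 0.21. Few cells carried these sums: per cell the list's median was 2.18 UMIs per 10000 in the RIPmOVA and 3.0 in the wild-type gate, and 6 of 41 (14.6%) and 12 of 97 (12.4%) cells lay above 20. The RIPmOVA cells with most RNA, of 29365 and 26659 UMIs, were among the 6. Mki67 had 79 and 73 UMIs, a ratio of 2.73 that became 1.26 with those gates, and Top2a 84 and 83, 2.56 and 1.46. H1f5 and H2bc18, histone genes of S phase, had 212 and 116 UMIs (ratio 4.62) and 39 and 24 (ratio 4.10), and 111 of the 212 H1f5 UMIs came from 1 cell. Histone genes have near-identical copies, so these values are uncertain. Dntt, which adds nucleotides to receptor joints, had 56 and 41, a ratio of 3.45, and 0.96 with gates per 10000. Of the 10 preselection genes listed with it, 3 were measured in this gate, all above 1, and 4 with gates per 10000, 2 of them above 1. Cpa3 (89 and 4 UMIs) and Trgc1 (71 and 10) were far higher in the RIPmOVA gate, but with gates per 10000 they had 1 and 0, and 2 and 2. By contrast Klf2 (0.10), Pdcd1 (3.1), Ikzf2 (3.77) and Hivep3 (3.75) kept their sides with those gates. Only 3 genes of the strong-antigen list were measured with them, all at least 2-fold higher, and no ratio is given for Bcl2l11.

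Chemokine and cytotoxic transcripts came from a handful of cells. Ccl5, a chemokine of memory and cytotoxic T cells, had 459 UMIs in the RIPmOVA mouse, 140, 127 and 94 of them in the highest 3 of 6 cells, and 458 of them in the CD4-CD8+ gate. In the wild-type mouse 62 of its 64 UMIs lay in 1 CD4-CD8- cell. The ratio was 10.5 over all cells and 2.88 with counts capped at the 99th percentile, and Ccl5 describes few cells and not the population. Gzmk, a granzyme, had 21 and 0 UMIs in the CD4-CD8+ gate, over 5 cells, at least 17.7-fold higher against the floor. Gadd45b over all cells had 58 and 14 UMIs, a ratio of 6.04 that became 1.92 when capped, since 52 of the 58 lay in 5 cells. Tnfrsf9 went from 3.64 to 1.91 in the same way. Xcl1, a chemokine that attracts cross-presenting dendritic cells, had 19 and 2 UMIs, 18 in 1 cell, and Rag1, a recombinase of receptor assembly, 13 and 1, 11 in 1 CD4+CD8+ cell. Neither the CD4+CD8+ gate (16 RIPmOVA cells) nor the CD4+CD8- gate (9) held the 20 cells required for ratios of genes.

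CD8 and CD4 proteins were lower on RIPmOVA cells, and KIT, SCA1 and several adhesion proteins higher. Of 114 antibodies with at least 200 UMIs, 6 (5.26%) were at least 1.5-fold higher in CPM of antibody UMIs in the RIPmOVA mouse and 12 (10.5%) at least 1.5-fold lower; by UMIs per cell with no scaling it was 12 and 5, and by centred log ratio 7 and 3. CD8B had a median of 17 UMIs per RIPmOVA cell and 57 per wild-type cell, a ratio of 0.38, CD8A 15 and 42, a ratio of 0.42, and CD4 10 and 16, a ratio of 0.57. ICOS (8 and 8) had a ratio of 0.60 by CPM. KIT, the stem cell factor receptor of early thymocytes, had medians of 9.5 and 5, a ratio of 2.17 (interval 2.06 to 2.28), and SCA1, a surface protein encoded by Ly6a, 4 and 2, a ratio of 2.03. CD49D, the integrin chain alpha 4, had medians of 27 and 8, a ratio of 1.98, CD48 141 and 68, a ratio of 1.51, and PD-1 53 and 26, a ratio of 1.47. KIT and SCA1 matched their RNA in side: Kit had 48 and 24 UMIs, a ratio of 2.92, and Ly6a 114 and 53, a ratio of 3.14. The ratios of KIT, SCA1, CD49D, CD48 and PD-1 stayed above 1 by UMIs per cell and by centred log ratio (KIT 2.59 and 1.85, PD-1 1.76 and 1.67). In the deeper CD4-CD8- cells KIT was 1.16, CD49D 1.17, CD48 1.21 and SCA1 1.58, so SCA1 alone of these 4 stayed past 1.5-fold by CPM; by centred log ratio SCA1 (1.6) and CD49D (1.68) did. Kit RNA was 0.92 and Ly6a RNA 1.32 in those cells.

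Single cells decided several other antibody ratios. In the wild-type mouse 1 cell held 7482 of 11792 CD45.1 UMIs, 1 held 1115 of 2461 CD16-CD32 UMIs, 1 held 349 of 739 CD94 UMIs and 1 held 305 of 766 CXCR5 UMIs. Their ratios were 0.35, 0.43, 0.47 and 0.57, and with counts capped at the 99th percentile 0.86, 0.94, 0.87 and 0.95. In the RIPmOVA mouse 1 cell held 3578 of 9912 CD49F UMIs, with a ratio of 1.6 that became 1.19, and 1 cell held 4276 of 23361 ITB7 UMIs, with a ratio of 2.0 that became 1.65. CD38 had a ratio of 1.44 and 1.20 when capped. With gates weighted alike, 3 of 114 antibodies (2.63%) were at least 1.5-fold higher and 9 (7.89%) lower, against 18 and 2 by UMIs per cell and 9 and 1 by centred log ratio. In the CD4-CD8- gate, of 110 antibodies 3 (2.73%) were higher and 17 (15.5%) lower by CPM, 60 and 3 by UMIs per cell, and 20 and 1 by centred log ratio. The median log2 ratio of all antibodies in that gate was -0.12 by CPM, 0.63 by UMIs per cell and 0.20 by centred log ratio, and in cells with at least 2000 antibody UMIs 0.04, 0.01 and 0.03. Sides in that gate are therefore read only in the deeper cells, where the scalings lie close together.

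Receptor chains and the integrin chains CD103 and ITB7 changed side between gates. The integrin chain CD49D was above 1 in both, at 1.83 in the CD4-CD8+ gate and 1.17 in the deeper CD4-CD8- cells by CPM. In the CD4-CD8+ gate TCRVA2 had a median of 29 UMIs per RIPmOVA cell and 51 per wild-type cell, a ratio of 0.44 (interval 0.41 to 0.47), and TCRVB5 17 and 28, a ratio of 0.45 (interval 0.42 to 0.48). TCRB, the constant part of the beta chain, had 13 and 25, a ratio of 0.53. In the deeper cells of the CD4-CD8- gate the medians of TCRVA2 were 45 and 31.5 (ratio 1.36), of TCRVB5 33 and 19.5 (ratio 1.56) and of TCRB 21.5 and 16.5 (ratio 1.33). The clonotype chains were thus lower in RIPmOVA cells of the CD4-CD8+ gate and higher in those of the CD4-CD8- gate. Both mice had been sorted as Va2+ Vb5+, so the comparison covers only cells within that sort. These values lay on the same side by UMIs per cell and by centred log ratio (TCRVA2 0.49 and 0.53 in the CD4-CD8+ gate, 1.33 and 1.21 in the deeper CD4-CD8- cells). Single cells overlapped: the 10th to 90th percentiles of TCRVA2 in the CD4-CD8+ gate were 12 to 55 in the RIPmOVA and 17 to 127 in the wild-type mouse.

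The integrin CD103 with its partner chain beta 7 (ITB7) followed the same split in protein and, for CD103, in RNA. In the CD4-CD8+ gate ITB7 had medians of 12 and 31 UMIs per cell, a ratio of 0.43, and CD103 15 and 21, a ratio of 0.45; Itgb7 RNA had 15 and 184 UMIs, a ratio of 0.21, and Itgae RNA a ratio of 0.04. In the deeper CD4-CD8- cells ITB7 had medians of 125.5 and 73.5 (ratio 2.09, with 4276 of 20627 RIPmOVA UMIs in 1 cell) and CD103 26 and 18 (ratio 1.86); Itgb7 RNA had a ratio of 1.29 whose interval (0.98 to 1.72) includes 1, and Itgae RNA (100 and 21 UMIs) of 2.07. CD24, which declines as thymocytes mature, had medians of 54 and 19 in the CD4-CD8+ gate, a ratio of 2.08 (interval 1.97 to 2.21), with 1.91 for Cd24a RNA. CD8A protein, which sets that gate, had medians of 121 and 212, a ratio of 0.57, and CD8B 137 and 195, a ratio of 0.50. In the deeper cells of the gate those ratios were 0.55 and 0.49. CD4 protein in the gate had medians of 41 and 25, a ratio of 1.22. CD28 (70 and 33) and CD27 (130 and 74) had ratios of 1.64 and 1.41, near their RNA values of 1.61 and 1.74. CD5 had medians of 664 and 479, a ratio of 1.16. PD-1 had 43 and 29, a ratio of 1.33 beside 3.02 for Pdcd1 RNA. KIT was 2.97 by CPM there and 1.47 by centred log ratio, with medians of 6 and 5, so it rested on few cells. CD127 was 0.44 by CPM, 0.74 when capped and 0.91 by centred log ratio, with medians of 19 and 17 that lay the other way, beside 0.41 for Il7r RNA. GITR was 5.99 by CPM, 1.71 when capped and 1.15 by centred log ratio, with medians of 4 and 4. Its RNA, Tnfrsf18, had a ratio of 1.20 whose interval (0.48 to 2.77) includes 1. Of 108 antibodies in the gate, 10 (9.26%) were at least 1.5-fold higher and 19 (17.6%) lower. Of the 6 antibodies higher over all cells 3 were still past 1.5-fold there, and of the 12 lower 8 were.

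**Figure D5:**
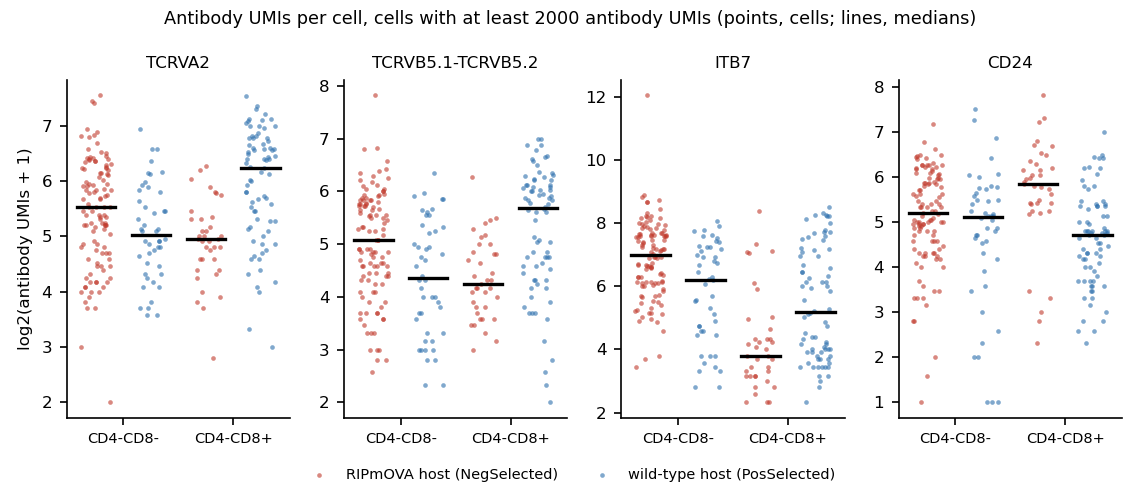
Antibody UMIs per cell as log2(UMIs + 1) (y axis) for TCRVA2, TCRVB5.1-TCRVB5.2, ITB7 and CD24 in the CD4-CD8- and CD4-CD8+ gates (x axis), in cells with at least 2000 antibody UMIs. Points are cells (112 and 46, then 37 and 76, RIPmOVA and wild-type in turn) and lines medians; in the CD4-CD8+ gate the RIPmOVA medians of TCRVA2, TCRVB5 and ITB7 lie below and that of CD24 above the wild-type medians, and in the CD4-CD8- gate all 4 lie above.

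The OT1 chimera in a B2m knockout host (b2m KO host B6.Ly5.1/Ncr, labelled NoSelection, 306 cells, also 1 mouse) and the OT2 chimeras give levels beside these. In the NoSelection mouse 81.0% of cells (interval 76.2 to 85.3) were CD4-CD8-, against 67.6% and 45.4%, and 12.7% were CD4-CD8+. Cpa3 was 704 CPM there, against 772 in the RIPmOVA and 163 in the wild-type mouse. S100a6 was 211 CPM against 199 and 21.5, and Alox5ap 101 against 128 and 19.3. Sox13 was 228 CPM against 189 and 73.6. Cd8a was 138 CPM against 65.0 and 433. In these 5 genes the NoSelection level lay nearer to the RIPmOVA than to the wild-type level. Mcub (10.7 against 46.2 and 10.7 CPM), Nr4a3 (6.4 against 29.0 and 9.7) and Gadd45b (6.4 against 45.4 and 7.5) lay nearer to the wild-type level. Ahr (13.9 against 40.7 and 3.8 CPM), Ikzf2 (365 against 557 and 261 CPM) and Pdcd1 (149 against 192 and 87.6) lay between, as did Cpa3, Alox5ap and Cd8a. In CPM, Ahr and Ikzf2 were nearer to the wild-type level and Pdcd1 nearer to the RIPmOVA level. In the OT2 chimeras, whose receptor sees ovalbumin on MHC class II, Ikzf2 was 607 CPM in the RIPmOVA and 73.3 in the wild-type host, Nr4a1 158 and 21.1, and Tnfrsf9 151 and 11.2. Klf2 was 273 and 500 CPM and Ccr7 217 and 478 in the same order. These are levels of single mice, and differences between receptors were not tested.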

How the data were processed

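RNA and antibody libraries of 6 mice, made with the 10x 5' v2 protocol, were used; libraries of T cell receptor sequences were left out. The authors deposited raw UMI counts per gene and per antibody for each cell, made with Cell Ranger 8.0.1, Seurat and mm10, per the submitters' processing notes; the tool for hashtag assignment and any removal of doublets are not given in the sources used here, and no doublet caller was run. No cell was removed and no barcode was shared between cells (0). Counts were summed per mouse and gate and divided by the total (CPM), with ratio, Poisson, Clopper-Pearson and Newcombe intervals (scipy 1.17.1). Gate thresholds on log2(UMIs + 1), 6.39 for CD4 and 5.53 for CD8A, came from a 2-component mixture (scikit-learn 1.9.0) over the 1331 cells; 47 and 87 cells lay within 0.5 of them. Intervals and floors of 3 counts treat UMIs as independent. Genes with at least 50 UMIs (antibodies 200) were looked at. Named genes were the 12 highest and 12 lowest ratios over all cells whose interval excluded 1.5-fold, 5 and 5 per gate and standardised, 8 and 8 antibodies (1.25-fold), up to 4 members per list and 22 fixed genes; receptor segments, ribosomal and mitochondrial genes and Xist stayed out of the ranking. Genes beside the antibody to their protein, and antibodies outside the 16, were chosen after their values were seen. Members and lists were chosen with earlier results of these data known. Alternatives were TMM (edgeR 4.0.16), RLE (DESeq2 1.42.0), other minima, capping, thinning to 2000 UMIs, other gates and weights; scripts were tested on simulated data. Of the measured maturation genes 1 is counted in the list but not reported here by itself.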

Additional observations from a re-analysis of the deposited data

Results flagged for a closer look

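For some features the ratio of RIPmOVA to wild-type host lay on the other side of 1 in the OT2 chimeras, 1 mouse a side again; the difference between OT1 and OT2 was not tested, and the T cells of OT2 are directed to another lineage. S100a6 and Cpa3, higher in OT1, had OT2 ratios of 0.490 and 0.353, and the antibody SCA1 had 0.371. Cd8a and Cd8b1, lower in OT1, had 3.14 and 2.81, and their antibodies CD8A and CD8B 3.39 and 3.23. Klrd1 had 2.24, Gm44174 2.73 and Cd74 3.96. The antibodies CD45.1 and CXCR5, which rested on single wild-type cells in OT1, had 1.52 and 3.91. With the main gates the shares of cells also lay on the other side of 0. NegSelected minus PosSelected in OT2 was 25.2 points (interval 17.3 to 33.1) for CD4+CD8+ cells, where the OT1 interval included 0. It was 19.96 points (interval 13.4 to 27.0) for CD4-CD8+ cells. For CD4-CD8- cells it was -7.82 points, with an interval (-16.1 to 0.954) that includes 0. That value was on the OT1 side in the other settings, at 2.61 points with at least 2000 antibody UMIs and 8.80 points per 10000.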

How the results depend on the processing

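No paired analysis was possible because each host had 1 mouse. Of the counts and shares, 31 values moved and 63 did not; of list medians 40 moved and 5 reversed, and of ratios 330 moved and 5 reversed. The setting with at least 2000 antibody UMIs was chosen after seeing the data. With it the CD4-CD8- and CD4+CD8+ differences were 38.7 and -10.9 points; per 10000 antibody UMIs the CD4-CD8-, CD4+CD8- and CD4-CD8+ differences were 37.7, -9.29 and -26.1 points, and -22.4 for CD4-CD8+ without cells near a threshold. Genes past 2-fold over all cells (239) were 585 with at least 20 UMIs, 47 with at least 200 and 85 thinned; standardised (176) they were 491, 33, 59, and 464 with equal gate weights. In the CD4-CD8- gate (293) they were 733, 46, 45 thinned, 158 without the cells above the 95th percentile of RNA UMIs, 172 with lower thresholds and 172 without cells near a threshold, 96 per 10000 and 104 with at least 2000 antibody UMIs. In the CD4-CD8+ gate (192) they were 696, 23, 51 thinned and 368 per 10000. Antibodies past 1.5-fold (18) were 10 by centred log ratio and 10 capped; standardised (12) 20 by UMIs per cell and 3 capped; in the CD4-CD8- gate (20) 63 and 11. Reversed values were Ccl5 capped (1.05), Gm20628 (4.35) and the antibody CD16-CD32 (1.01) with at least 2000 antibody UMIs and CD45.1 by centred log ratio (1.17), all in the CD4-CD8- gate, and the antibody CXCR5 standardised by centred log ratio (1.01). In the CD4-CD8+ gate the list medians of chemokine receptors (0.17 with at least 20 UMIs), innate cytotoxic genes (0.94 with at least 200, 0.43 by per-cell CPM, 2.44 thinned) and CD8aa intraepithelial precursors (0.20 by per-cell CPM) reversed. The cause was not tested. Depth limits most named genes to under 100 UMIs in at least 1 mouse, and the small gates to no ratios.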
